A study of Mus musculus with 29 samples.

Results

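Replication-dependent histone genes encode the H1, H2A, H2B, H3 and H4 proteins that package newly made DNA. Their transcription rises in S phase, their genes lie in clusters and mostly lack introns, and their mRNAs end in a stem loop in place of a poly(A) tail. The members were all protein-coding genes of the mm10 annotation whose symbols start with Hist1h, Hist2h, Hist3h or Hist4h, which gave 67 of 21853 protein-coding genes on the autosomes, X and Y. They comprise 6 H1, 18 H2A, 18 H2B, 12 H3 and 13 H4 genes, and 65 of the 67 have a single exon in the transcript used.

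ChIP-seq with an antibody against the HA tag located the binding of transcription factors (TFs) in NIH-3T3 cells, an immortalised line of mouse fibroblasts. All cell lines carried the rtTA3G activator and a lentiviral transgene with HA tags at the C-terminus of the TF, and all were treated overnight with 500 ng/ml doxycycline, so every list reports an overexpressed protein. The 24 constructs are 21 wild-type TFs (BHLHB8, BRACHYURY, CDX2, DLX1, DLX6, DUXBL, EBF1, FOXA1, HLF, MAX, NANOG, OCT4, PRR3, RHOX11, SIX6, SOX15, SOX2, TEAD1, THAP4, TOX3 and ZFP319), the mutants FOXA1_RR and FOXA1_SW with reduced non-specific DNA binding, and OCT4-HA with SOX2-YPET expressed in the same cells. Duplicate peak lists exist for OCT4-HA, SOX2-HA, BHLHB8-HA and FOXA1-HA, and 1 list for each of the other 20 constructs, which gives 28 lists. The lists held between 52 and 61991 peaks, and they hold positions only, so the sequencing depth is unknown. For 20 constructs no replicate error exists.

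The genes lie in 5 groups. A block of 10 genes is on chromosome 3 (chr3:96219865-96270132), Hist4h4 stands alone on chromosome 6 (chr6:136801553-136804415), Hist3h2ba and Hist3h2a lie on chromosome 11 (chr11:58948920-58956830), and 2 blocks of 23 and 31 genes make up the large cluster of chromosome 13 (chr13:21715763-22043676 and chr13:23531050-23934851). The genes are packed so closely that their windows, the gene with 1 kb on each side, merge into 34 stretches, and 13 pairs start back to back within 1 kb of each other, of which 12 pair an H2A with an H2B gene. A peak between such genes counts for each of them, so counts of genes are not counts of independent events. Of the 84 merged sites found in these windows, 36 counted for more than one member.

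The promoters of the member with the most constructs in each class, the first in genome order where members tied, are shown first. In Hist1h3e, Hist4h4, Hist2h2ab and Hist1h2bh peaks lay within 1 kb of the start, whereas in Hist1h1d the peaks had their midpoints between 2096 and 3843 bp downstream of it. The coding sequence of Hist1h1d begins at chr13:23555090, so the bases printed for this gene do not lie next to its coding sequence. Each run gives the 250 bases before the annotated start site in GRCm38 (mm10), 5′ to 3′ on the strand of the gene. Capitals mark CCAAT, the NF-Y element, TATAAA, the TATA box, and GGTCCG, the core of the H4 element of HINFP, in either orientation.
Hist1h3e (H3, chr13:23562370-23562619, minus strand): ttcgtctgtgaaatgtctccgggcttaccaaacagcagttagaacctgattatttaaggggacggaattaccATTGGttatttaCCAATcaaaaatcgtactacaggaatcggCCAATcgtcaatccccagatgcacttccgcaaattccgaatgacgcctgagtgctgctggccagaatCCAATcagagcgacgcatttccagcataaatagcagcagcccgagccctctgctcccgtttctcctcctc
Hist4h4 (H4, chr6:136804416-136804665, minus strand): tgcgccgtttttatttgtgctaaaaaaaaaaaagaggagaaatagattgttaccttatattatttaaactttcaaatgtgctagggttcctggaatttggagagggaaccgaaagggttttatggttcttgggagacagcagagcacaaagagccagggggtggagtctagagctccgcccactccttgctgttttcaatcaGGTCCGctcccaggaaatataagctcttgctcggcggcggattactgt
Hist2h2ab (H2A, chr3:96219615-96219864, plus strand): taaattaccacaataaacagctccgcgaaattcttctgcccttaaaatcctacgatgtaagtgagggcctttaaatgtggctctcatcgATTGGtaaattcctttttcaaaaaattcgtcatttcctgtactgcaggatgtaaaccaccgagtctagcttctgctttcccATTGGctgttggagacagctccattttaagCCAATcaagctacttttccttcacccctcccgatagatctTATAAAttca
Hist1h2bh (H2B, chr13:23543393-23543642, minus strand): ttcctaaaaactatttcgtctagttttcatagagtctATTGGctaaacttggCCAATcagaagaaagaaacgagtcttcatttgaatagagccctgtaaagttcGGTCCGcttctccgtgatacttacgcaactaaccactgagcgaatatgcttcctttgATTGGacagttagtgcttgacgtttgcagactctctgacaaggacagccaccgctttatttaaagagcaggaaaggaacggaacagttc
Hist1h1d (H1, chr13:23553012-23553261, plus strand): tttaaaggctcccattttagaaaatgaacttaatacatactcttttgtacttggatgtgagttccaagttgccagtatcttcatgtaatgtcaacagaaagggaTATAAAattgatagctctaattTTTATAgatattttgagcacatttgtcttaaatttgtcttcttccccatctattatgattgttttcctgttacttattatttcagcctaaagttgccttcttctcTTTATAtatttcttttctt

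A peak of at least 1 construct lay within 1 kb of 58 of the 67 histone genes (86.6%), beside 76.0% of all protein-coding genes. Histone genes are short, with a median length of 539 bp against 17505 bp for the other genes, so the start of each gene's principal transcript with 1 kb on each side was used as a window of the same size for both. Within it, 55 of 67 histone start sites (82.1%) had a peak, beside 57.6% of all protein-coding start sites. The median was 2 constructs per histone start site and 1 per other start site, and the means were 1.90 ± 1.73 (SD over 67 genes) and 1.35 ± 1.64 (SD over 21786 genes). Peaks of 10 or more constructs were found at Hist4h4 alone, 1 of 67 members (1.49%), beside 7.20% of all genes counted with their whole length and 0.133% of all start sites. When the starts of all protein-coding transcripts counted, 55 histone genes (82.1%) and 61.4% of the others had a peak. Other genes then had a mean of 2.49 starts against 1.06 for histone genes.

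**Figure D1:**
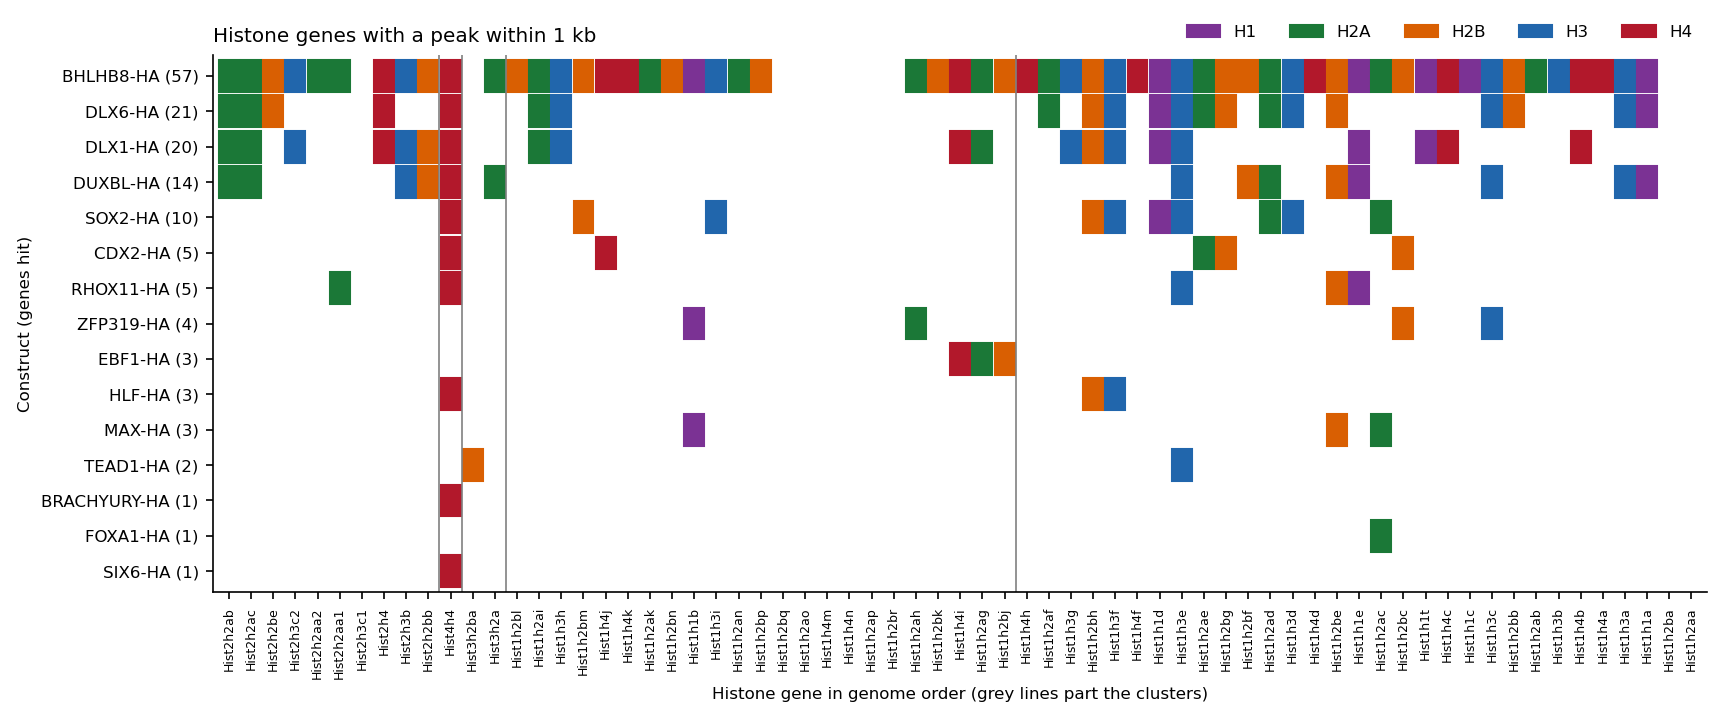
Histone genes (columns, in genome order, coloured by class) with a peak within 1 kb (filled cell) for each of the 15 constructs that had any (rows, with the number of genes hit). BHLHB8-HA fills 57 of 67 columns, Hist4h4 is filled for 10 constructs, and 9 columns are empty.

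Of the 24 constructs, 15 had a peak within 1 kb of a histone gene and 9 had none. Gene and construct met in 150 combinations, of which BHLHB8-HA supplied 57, and BHLHB8-HA, DLX1-HA, DLX6-HA, DUXBL-HA and SOX2-HA together supplied 81.3%. BHLHB8-HA was the sole construct at 15 genes. Hist3h2ba was the one gene with a peak that had none of BHLHB8-HA. Over the 24 constructs, the number of histone genes hit rose with the number of peaks called, with Spearman's rho = 0.832 and Pearson's r = 0.943, given as a description because the points share the same cell line, genes and neighbouring windows. BHLHB8-HA had both the most peaks and the most genes, and r was not computed without it. Long lists differed widely: DLX6-HA met 21 genes with 20983 peaks, CDX2-HA 5 with 25278 and TEAD1-HA 2 with 14959.

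BHLHB8, also known as MIST1, is a basic helix-loop-helix TF of secretory cells that binds E-boxes. BHLHB8-HA replicate 1 had a peak within 1 kb of 45 of 67 histone genes (67.2%), beside 50.1% of all genes, and replicate 2 had one near 51 (76.1%), beside 62.5%. The mean over the duplicates was 48.0 ± 4.24 genes (SD, n = 2). At start sites the numbers were 40 of 67 (59.7%, exact 95% interval 47.0 to 71.5) beside 30.8% of all start sites in replicate 1, and 48 of 67 (71.6%, interval 59.3 to 82.0) beside 41.1% in replicate 2. In both lists the histone share lay above the share of all start sites by more than the 11.9 percentage points between the duplicates. The duplicates shared 39 genes, which is 86.7% of the genes of replicate 1 and 76.5% of those of replicate 2.

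DLX6 and DLX1 are homeodomain TFs of the developing forebrain and face, and DUXBL is a double homeodomain TF related to DUX4. DLX6-HA had peaks within 1 kb of 21 histone genes (31.3%), beside 22.3% of all genes, and at 17 start sites (25.4%, interval 15.5 to 37.5), beside 7.03%. DLX1-HA had them near 20 genes (29.9%), beside 27.7%, and at 16 start sites (23.9%, interval 14.3 to 35.9), beside 11.8%. DUXBL-HA had them near 14 genes (20.9%), beside 24.5%, and at 13 start sites (19.4%, interval 10.8 to 30.9), beside 3.61%. The start-site intervals of all 3 lay above the share of all start sites, whereas the whole-gene intervals (20.6 to 43.8, 19.3 to 42.3 and 11.9 to 32.6, in the same order) held the share of all genes. These intervals cover counting error over genes and treat neighbouring genes as separate, whereas the 14 genes of DUXBL-HA came from 9 peaks, and the 21 of DLX6-HA and the 20 of DLX1-HA from 16 peaks each.

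SOX2, a high-mobility-group TF of stem cells, had duplicates of unequal size. SOX2-HA replicate 1 had peaks within 1 kb of 10 histone genes (14.9%), beside 23.6% of all genes, and at 7 start sites (10.4%, interval 4.30 to 20.3), beside 4.01%. Replicate 2, with 5692 peaks in place of 25049, had them near 2 genes (2.99%), beside 8.58%, and at 1 start site (1.49%, interval 0.0378 to 8.04), beside 0.572%. Both genes of replicate 2, Hist1h2bm and Hist1h2ac, were among the 10 of replicate 1. In both lists the histone share of start sites was above that of all start sites, and in replicate 2 the interval, from 1 start site, held the share of all. With the duplicates joined the share was 10.4% beside 4.05% of other start sites, or 5.61% when the starts of all transcripts of a gene counted, a value within the interval.

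CDX2, the caudal homeodomain TF of the intestine, and HLF, a PAR bZIP TF, each met few histone genes. CDX2-HA had peaks near 5 genes (7.46%), beside 24.4%, and at 4 start sites (5.97%), beside 1.83%. HLF-HA had peaks near 3 genes, beside 4.88%, and at the same number of start sites (4.48%), beside 0.979%, from 2 peaks. BRACHYURY-HA, the T-box TF of the mesoderm, had 1 peak, at Hist4h4, so that 1 gene and 1 start site were hit, beside 1.23% and 0.0915%. Counts of this size leave wide intervals, from 1.65% to 14.6% for the start sites of CDX2-HA and from 0.933% to 12.5% for those of HLF-HA.

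TEAD1, the DNA-binding partner of YAP and TAZ in the Hippo pathway, showed the opposite pattern. TEAD1-HA had peaks at 29.8% of all protein-coding start sites, but at 2 of 67 histone start sites (2.99%, interval 0.364 to 10.4), those of Hist3h2ba and Hist1h3e. Counted with the whole gene the number was also 2, beside 39.8% of all genes. Among start sites whose windows hold at least 80% of words that occur once in the genome, TEAD1-HA met 1 of 31 histone genes (3.23%) and 6446 of 19310 others (33.4%). The list is a single one, so the spread between TEAD1-HA libraries is not known.

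Other constructs were at or under the background at histone start sites. RHOX11-HA, a homeodomain TF of the reproductive tract, had peaks near 5 genes, beside 14.0%, all at start sites (7.46%, interval 2.47 to 16.6), beside 10.5%. ZFP319-HA had peaks near 4 genes (5.97%), beside 22.2%, and at 1 start site, beside 5.83%. EBF1-HA, a B-cell TF, had 1 peak that counted for Hist1h4i, Hist1h2ag and Hist1h2bj, beside 14.4% of all genes, and for their start sites beside 5.43%. MAX-HA, the partner of MYC, had peaks near 3 genes, beside 8.10%, and at 1 start site, beside 1.95%. SIX6-HA, a homeodomain TF of the eye, met Hist4h4 alone, beside 9.23% of genes and 2.21% of start sites.

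**Figure D2:**
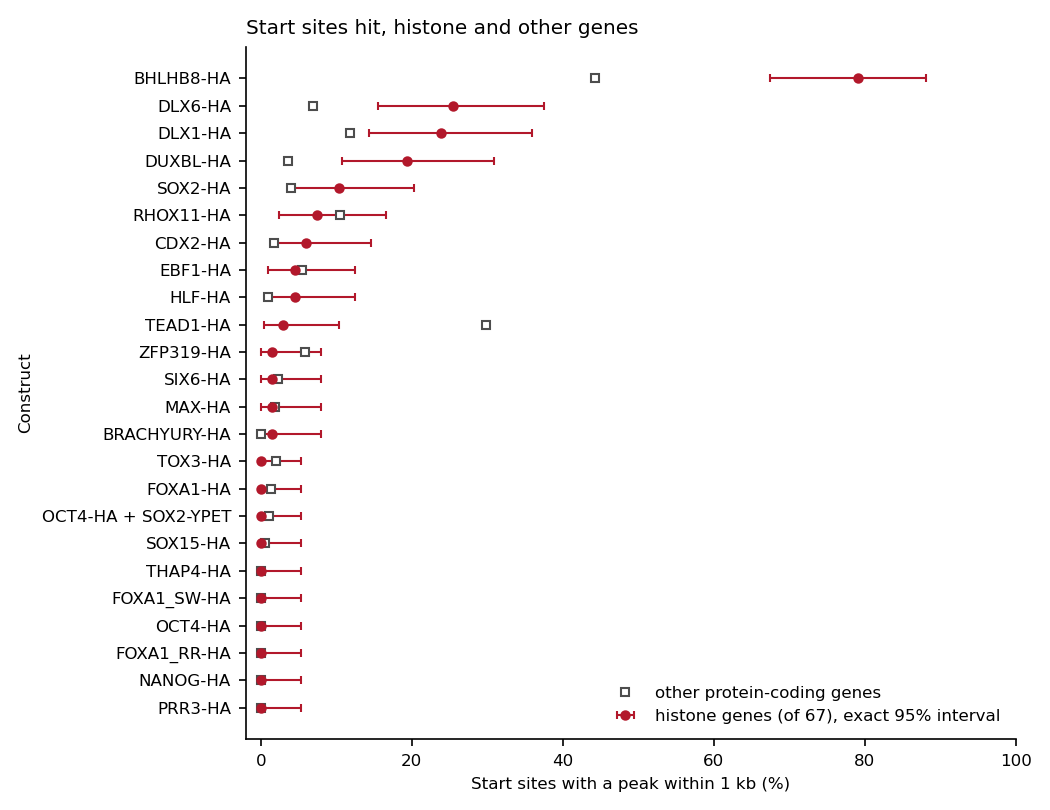
Percent of start sites with a peak within 1 kb for the 24 constructs, for the 67 histone genes (filled points, bars are exact 95% intervals over genes) and for the 21786 other protein-coding genes (open squares), with duplicate lists joined. The squares of BHLHB8-HA, DLX6-HA, DLX1-HA, DUXBL-HA and SOX2-HA lie left of the bars, that of SOX2-HA, at 4.05%, by little, and that of TEAD1-HA, at 29.8%, lies right of its bar.

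Wild-type FOXA1, a forkhead TF of endoderm, was compared with its mutants, which address the role of non-specific DNA binding. FOXA1-HA replicate 1 had a single peak near a histone gene, Hist1h2ac, beside 9.23% of all genes, and none at a histone start site, beside 1.30%. FOXA1-HA replicate 2 had none, beside 2.00% of genes and 0.288% of start sites. FOXA1_RR-HA had none either, beside 0.256% and 0.0412%, and FOXA1_SW-HA had none, beside 0.252% and 0.0549%. With these backgrounds less than 1 histone gene would be met by either mutant at the rate of all genes, so the comparison could not show a difference at this number of genes. A count of 0 of 67 allows a share of up to 5.36% by the exact 95% interval.

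OCT4, a POU-domain TF that binds the octamer ATTTGCAT, was tested alone and with SOX2, a question of the study being whether a partner changes its reach. OCT4-HA replicate 1 had no peak within 1 kb of a histone gene, beside 0.210% of all genes and 0.0549% of start sites, and neither had replicate 2, beside 0.0915% and 0.0183%. OCT4-HA with SOX2-YPET, with 5146 peaks, also had none, beside 6.15% of all genes and 1.04% of start sites. The octamer itself is an element of H2A and H2B promoters: it was present in the 250 bases before the start of 7 of 18 H2A genes and 8 of 18 H2B genes, 15 of 67 members (22.4%), beside 1.54% of all protein-coding promoters. Starts of H2A and H2B pairs lie 176 to 306 bp apart, so 1 octamer can count for both genes. The 15 genes are therefore not 15 separate promoters. None of these 15 genes had an OCT4 peak with or without SOX2-YPET within 1 kb of the start. At the start-site shares above, less than 1 of the 15 would be met by any of these lists. The count of 0 could therefore not show a difference. The octamer was within the central 200 bp of 0.758% of the peaks of OCT4-HA with SOX2-YPET. For OCT4-HA alone the shares were 8.42% in replicate 1 and 1.92% in replicate 2.

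The other lists without a histone gene were those of NANOG-HA, beside 0.535% of genes and 0.0412% of start sites, of PRR3-HA, beside 0.110% and 0.0275%, of THAP4-HA, beside 0.114% and 0.0595%, of SOX15-HA, beside 7.41% and 0.567%, and of TOX3-HA, beside 3.68% and 2.06%. NANOG-HA, PRR3-HA and THAP4-HA have so few peaks that a count of 0 was near the background. Over all 24 constructs the histone share of start sites was above that of the other genes for 8 and below for 16, and the median difference was -0.0551 percentage points. The 8 above were BHLHB8-HA, BRACHYURY-HA, CDX2-HA, DLX1-HA, DLX6-HA, DUXBL-HA, HLF-HA and SOX2-HA. A construct with no histone start hit is below by any background, however small. The median is the value of FOXA1_SW-HA and OCT4-HA, with 0 histone starts beside 0.0551% of other starts. It therefore says little about histone promoters.

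Peaks sat at different places along the genes, and the coding direction was used to order them. In BHLHB8-HA replicate 2, 33 of the 39 peaks with a midpoint within 1 kb of the nearest histone start lay in the first 500 bp downstream (84.6%), with a median position of 230 bp, and 35 (89.7%) touched histone coding sequence. In replicate 1, 22 of 42 lay there (52.4%), with a median of 354 bp, and 29 (69.0%) touched coding sequence. At other promoters the same lists had 52.3% and 40.7% of their peaks in these 500 bp, and 51.0% and 33.6% touched coding sequence. Coding sequence makes up 13.4% of the bases of the merged histone windows, and it begins close to the start site in many of these genes, but not in Hist1h1d. That share is of bases over whole windows. It is not a background for shares of peaks near a start that touch coding sequence at any base.

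DUXBL-HA and DLX6-HA lay on the other side of the start. Of the 9 DUXBL-HA peaks, 8 had their midpoint in the 500 bp upstream (88.9%), between -224 and -49 bp, beside 44.3% at other promoters, and the remaining one, at Hist1h3c, had its midpoint at 9 bp. Of 14 DLX6-HA peaks within 1 kb, 10 lay in the 500 bp upstream (71.4%), beside 60.0% at other promoters, with a median of -128 bp. DLX1-HA was spread on both sides, with 5 of 13 in the 500 bp upstream (38.5%) and 4 in the 500 bp downstream. The ZFP319-HA peaks all had their midpoints more than 1 kb downstream of the nearest start, between 1137 and 1887 bp. The end of the one at Hist1h3c reached within 1 kb of the start.

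**Figure D3:**
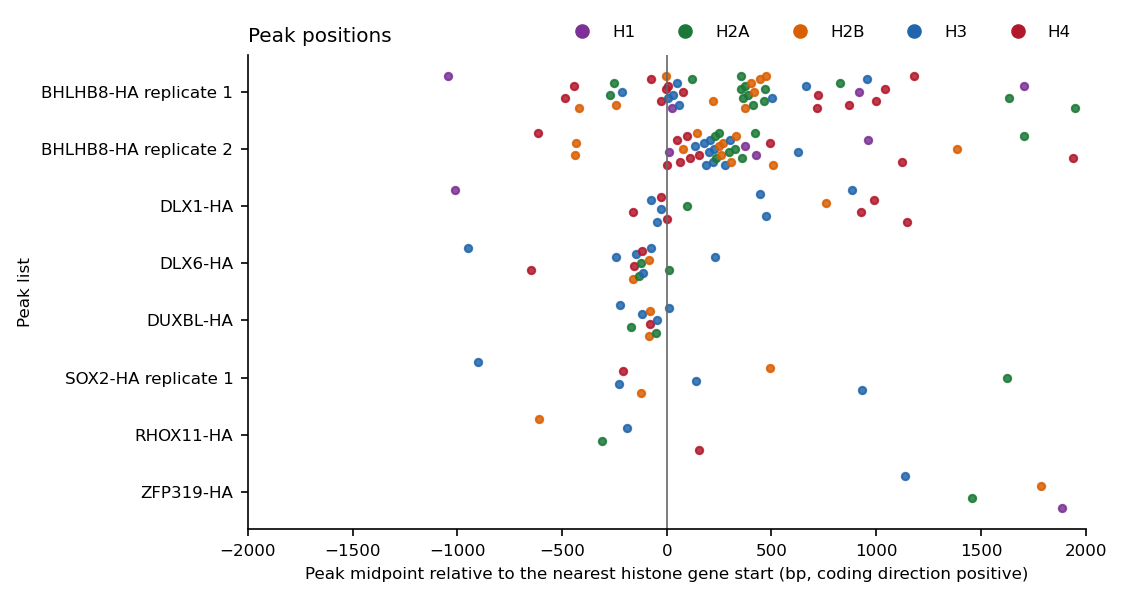
Midpoint of each peak relative to the nearest histone gene start (x axis, in bp, positive in the coding direction), by list and coloured by class, for peaks within 2 kb. DUXBL-HA and most DLX6-HA peaks lie just left of the start, and those of BHLHB8-HA replicate 2 gather to its right around 230 bp.

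Histone peaks of other constructs met BHLHB8-HA peaks to differing degrees, some above and some below the share over all peaks of the construct. All 16 DLX1-HA peaks near histone genes overlapped a peak of at least 1 BHLHB8-HA list, beside 77.0% of all DLX1-HA peaks. The shares were 10 of 16 for DLX6-HA (62.5%), beside 67.4%, and 5 of 9 for DUXBL-HA (55.6%), beside 18.5%. They were 6 of 11 for SOX2-HA (54.5%), beside 57.7%, 1 of 3 for MAX-HA, beside 60.2%, and 4 of 4 for RHOX11-HA, beside 62.2%. The shares over all peaks include peaks away from promoters. DLX1-HA and DLX6-HA shared 10 histone genes, which is 50.0% of the DLX1-HA genes and 47.6% of the DLX6-HA genes, and DUXBL-HA shared 9 of its 14 genes (64.3%) with DLX6-HA. Of the 84 merged sites at histone genes, 55 (65.5%) held peaks of a single construct, beside 76.3% of the 168506 merged sites of the genome.

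The H3 class, which forms the tetramer core with H4, had the highest mean number of constructs per gene, 2.92 ± 1.83 (SD over 12 genes). Hist1h3e had peaks of 7 constructs (BHLHB8-HA, DLX1-HA, DLX6-HA, DUXBL-HA, RHOX11-HA, SOX2-HA and TEAD1-HA), of which 6 met in 1 site (chr13:23561916-23562670). The promoter of this gene, printed above, holds 4 CCAAT words, and the DUXBL-HA peak had its midpoint at -116 bp, between 2 of them. Hist1h3f had 5 constructs and Hist1h3c had 4, while Hist2h3c1 had none. The lead over the H1 class was 0.0833 constructs per gene, far under the spread between genes, and it depended on the window. It was 0.583 with the gene body alone, 0.917 with 500 bp on each side and 0.994 at start sites. It turned to H1 with 2 kb on each side, where the difference was -0.167, and without the testis-restricted genes, where it was -0.0833.

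H4 genes had the lowest median, 1 construct, and the widest range, from 0 to 10. Hist4h4 is the one member that lies apart from all others. It had peaks of BHLHB8-HA, BRACHYURY-HA, CDX2-HA, DLX1-HA, DLX6-HA, DUXBL-HA, HLF-HA, RHOX11-HA, SIX6-HA and SOX2-HA, which merge into 1 site over its start (chr6:136803310-136805147), the one widely shared site at a histone gene out of 726 in the genome. The 10 constructs did not share one position: BRACHYURY-HA at 150 bp, RHOX11-HA at 152 bp, HLF-HA at 262 bp and SIX6-HA at 306 bp lay over the gene, and CDX2-HA at -75 bp, DUXBL-HA at -81 bp, DLX6-HA at -155 bp, DLX1-HA at -162 bp and SOX2-HA at -207 bp lay over the promoter. Among SOX2-HA lists the peak was in replicate 1 only, so without that list the gene had 9 constructs. Hist2h4 and Hist1h4i followed with 3 constructs each, and Hist1h4m had none.

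Many H2A and H2B genes start back to back, in 12 pairs, so their windows overlap and a peak can count for both. The constructs of a pair were not always the same: at the start sites Hist2h2ac had 4 and Hist2h2be had 2. The means were 2.06 ± 1.43 constructs per H2A gene (SD over 18 genes) and 1.89 ± 1.49 per H2B gene (SD over 18 genes). Hist2h2ab, Hist2h2ac, Hist1h2ad and Hist1h2ac had 4 constructs each in the H2A class. Hist2h2ab and Hist2h2ac shared a site of BHLHB8-HA, DLX1-HA, DLX6-HA and DUXBL-HA (chr3:96219537-96220738). In the H2B class Hist1h2bh and Hist1h2be had 5 each, and Hist2h2bb, Hist1h2bg and Hist1h2bc had 3 each. Hist1h2bh starts back to back with Hist1h3f, 660 bp away, and the pair had the same 5 constructs, BHLHB8-HA, DLX1-HA, DLX6-HA, HLF-HA and SOX2-HA. Hist1h2be is annotated over 37455 bp and overlaps Hist1h1e near its start. Its count of 5 fell to 3 at the start site, because the DLX6-HA and MAX-HA peaks lay within the gene, away from the start. The lowest counts of both classes were 0, at Hist1h2ao and Hist1h2bq among others.

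The H1 genes, which encode the linker histones, all had a peak, with a mean of 2.83 ± 1.17 constructs (SD over 6 genes). Hist1h1d and Hist1h1e had 4 constructs each, and Hist1h1b and Hist1h1a had 3 each, while Hist1h1c had 1. The count of Hist1h1d came from peaks within its long annotated transcript, and none lay within 1 kb of its annotated start. The coding sequence of Hist1h1d begins farther downstream, at chr13:23555090, within a BHLHB8-HA replicate 2 peak (chr13:23555069-23555648). Hist1h1e had 3 constructs at its start. Of the chromosome 11 genes, Hist3h2a had peaks of BHLHB8-HA and DUXBL-HA, and Hist3h2ba had 1 TEAD1-HA peak with its midpoint at -645 bp.

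Testis-restricted members were Hist1h1t, Hist1h2aa and Hist1h2ba, which are expressed in male germ cells. No construct had a peak within 1 kb of any of their starts. Hist1h1t had peaks of BHLHB8-HA and DLX1-HA near its other end, which lies close to Hist1h4c, and Hist1h2aa and Hist1h2ba had no peak within 1 kb of the gene. Their sequence was readable, with 99.7%, 91.0% and 91.8% of words unique.

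Reads of 37 bases were kept only when they aligned to one place, and histone genes are near copies of each other. The share of 37-base words that occur once on the assembled chromosomes had a median of 77.6% in histone start-site windows, against 99.2% in those of other genes. In the window of the whole gene it ranged from 0% to 99.7%. Of the 9 members without any peak, Hist1h2bq, Hist1h2ao, Hist1h4m, Hist1h4n, Hist1h2ap and Hist1h2br held between 0% and 8.15% unique words. Hist2h3c1 held 58.5%, but 20.0% in its start-site window, so most words near its start are not unique. The others of the 9 were the testis-restricted pair. The 58 members with a peak held 34.0% to 99.7%. Few unique reads can fall on the 6 members under 10%, so a count of 0 there does not bear on binding.

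**Figure D4:**
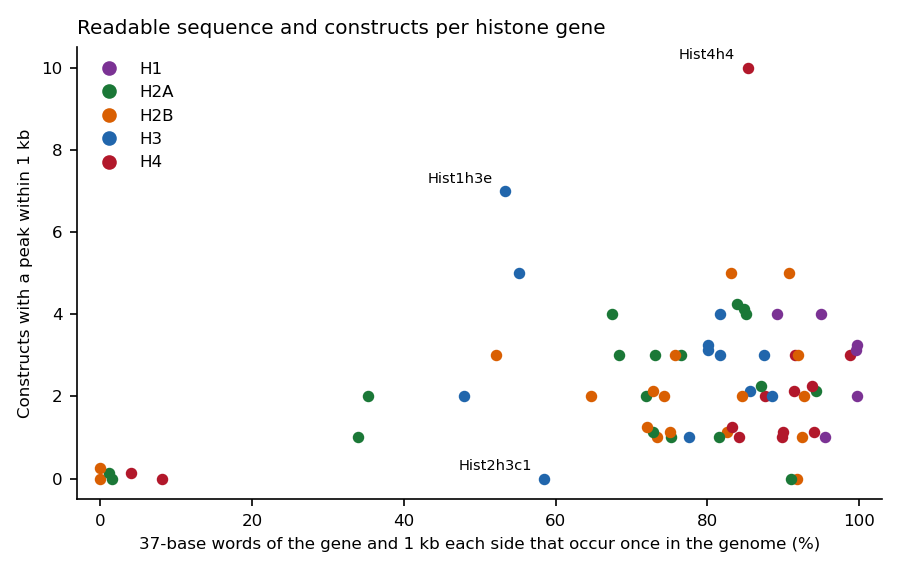
Number of constructs with a peak within 1 kb (y axis) against the percent of 37-base words of the gene and 1 kb on each side that occur once in the genome (x axis) for the 67 histone genes, coloured by class, with overlapping points raised slightly. The 6 genes under 10% have no construct, and Hist1h3e has 7 at 53.4%.

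When both groups were limited to start sites with at least 80% unique words, 26 of 31 histone genes (83.9%) and 12151 of 19310 others (62.9%) had a peak of at least 1 construct. BHLHB8-HA was then at 77.4% of histone and 48.4% of other start sites, DLX6-HA at 32.3% and 7.70%, DLX1-HA at 9 of the 31 histone and 2505 of the 19310 others, and DUXBL-HA at 22.6% and 3.78%. The order of these constructs and the side on which each lay were as in the whole set.

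Promoter elements of the histone genes differed by class. CCAAT was present before 54 of 67 starts (80.6%), beside 35.1% of all promoters, and in all 18 H2A and all 18 H2B promoters, but in 4 of 13 H4 promoters. The HINFP core GGTCCG, the H4 element, was present in 12 of 13 H4 promoters (92.3%), beside 8.21% of all promoters, and in 2 of the other 54 members. The TATA word TATAAA was present in 34 of 67 (50.7%), beside 12.1%, and the E2F word TTTCGCGC in 8 (11.9%), beside 0.288%. The words were searched on both strands in the same 250 bases of each gene, and a match is a description and not a binding site. Back-to-back H2A and H2B genes share many of these bases, and Hist1h2ac and Hist1h2bc share all of them. One word can thus count for both genes of a pair, so these counts of genes are not counts of separate promoters.

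**Figure D5:**
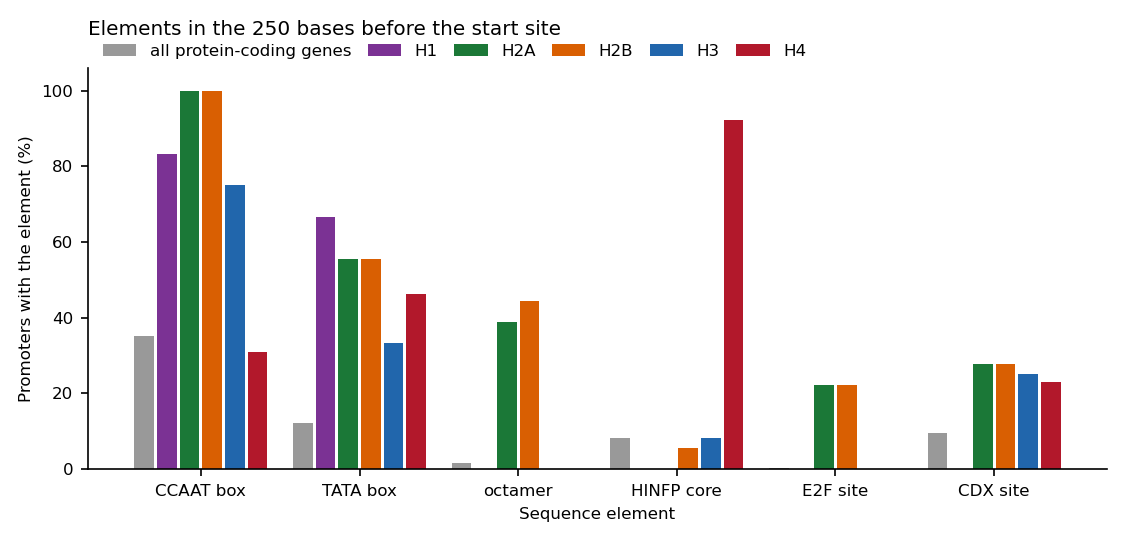
Percent of promoters (250 bases before the start, both strands) that hold each of 6 sequence elements (x axis), for all protein-coding genes (grey) and for the histone classes (colours). CCAAT stands in all H2A and H2B promoters, the octamer, among the histone classes, in these 2 alone, and the HINFP core in 92.3% of H4 promoters.

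The NF-Y word CCAAT and words that some of the expressed TFs are known to bind were counted in the 200 bp around the midpoint of each peak, which reach past the ends of narrower peaks. CCAAT was present in 7 of 9 DUXBL-HA peaks at histone genes (77.8%) and in 52.9% of its other peaks. Of the DLX6-HA peaks at histone genes, 13 of 16 held it (81.2%), beside 29.4% of its other peaks. CDX2-HA had the word in 3 of 4 (75.0%), beside 32.2%, and DLX1-HA in 7 of 16 (43.8%), beside 24.2%. The word is also in 80.6% of histone promoters. Over all peaks of a list, CCAAT was in 52.9% for DUXBL-HA and in 9.53% to 36.2% for the other 27 lists, with a median of 23.5%. The homeodomain word TAATTA was in none of the 16 DLX1-HA, 16 DLX6-HA and 9 DUXBL-HA peaks at histone genes. It was in 8.31%, 10.2% and 5.94% of their other peaks, in the same order. At these shares few of 16 or 9 peaks would hold it, so each count of 0 was near the background. In the promoters TAATTA was present before 3 of 67 starts. DLX6-HA had a peak at 3 of these 3 start sites and DLX1-HA at 2, and each at 14 of the other 64. DUXBL-HA had a peak at 0 of the 3 and at 13 of the 64. The CDX word TTTATG was in all 4 CDX2-HA peaks at histone genes, beside 52.6% of its other peaks. The TEAD word CATTCC was in 0 of the 2 TEAD1-HA peaks at histone genes. It was in 4.51% of the other TEAD1-HA peaks, under the share in the other peaks of every other list. SOX2-HA replicate 1 had CATTGT in 3 of 9, beside 27.2%. MAX-HA had the E-box CACGTG, the word of MAX, in 0 of its 3 peaks at histone genes, beside 2.92% of its other peaks. A forkhead word, TGTTTAC or TATTTAC, was in 2 of these 3, beside 41.7% of its other peaks. The same words were in 37.2% of the other peaks of FOXA1-HA replicate 1. Whether MAX-HA bound DNA by its own word at these genes was not tested.

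The E-box CAGCTG, a preferred word of bHLH dimers of the class of BHLHB8, was in these 200 bp in 19 of 50 histone peaks of replicate 1 (38.0%), beside 37.8% of its other peaks, and in 12 of 46 of replicate 2 (26.1%), beside 35.1%. Over whole peaks it was in 23 of 50 (46.0%), beside 49.7%, and in 23 of 46 (50.0%), beside 54.4%. In replicate 2 the number of H3 peaks with the word was 2 of 10 in the 200 bp and 9 of 10 over the whole peak. Replicate 1 went the other way, with 7 of 8 H3 peaks in the 200 bp and 6 of 8 over the whole peak. The duplicates therefore give no common place of the word within H3 peaks. In the promoters it was present before 6 of 67 starts (8.96%), beside 12.0% of all promoters, and 5 of these 6 had a BHLHB8-HA peak at the start site, as had 48 of the other 61. In the coding sequence it was present in 11 of 12 H3 genes, 16 of 18 H2A genes and 1 of 6 H1 genes, and in no H2B or H4 gene. In Hist1h3e it begins at coding base 58, within the peaks of both BHLHB8-HA lists (chr13:23561984-23562653 and chr13:23561916-23562554), and coding bases 16 to 105 are shown with the word in capitals. Coding bases 1 to 90 of Hist4h4 are shown beside it as a stretch without the word that lies within the peak of replicate 2.
Hist1h3e coding (chr13:23562261-23562350, minus strand): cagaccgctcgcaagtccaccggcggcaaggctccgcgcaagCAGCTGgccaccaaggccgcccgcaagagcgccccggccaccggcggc
Hist4h4 coding (chr6:136804290-136804379, minus strand): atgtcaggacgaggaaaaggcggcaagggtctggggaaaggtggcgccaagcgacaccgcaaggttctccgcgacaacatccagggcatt

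BHLHB8-HA peaks covered coding sequence in every class, with and without the word. In replicate 2 they covered 79.0% of the coding bases of H3 genes, 40.0% of those of H2A, 38.5% of H2B, 46.3% of H4 and 53.5% of H1 genes. In replicate 1 the shares were 22.6%, 20.7%, 22.1%, 16.4% and 2.96% in the same order. The classes H2A, H2B and H3 were nearly equal in replicate 1, and the duplicates differed in every class by more than these did.

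Related genes were counted in the same way. Of 14 measured genes for replication-independent histone variants, which are made outside S phase, 11 (78.6%) had a peak of at least 1 construct at the start, with a median of 2.5 constructs, beside 57.6% and a median of 1 over all protein-coding start sites. H2afv, which encodes an H2A.Z form, had 7 constructs, H3f3b, which encodes H3.3, had 6, and H3f3a was among 5 genes with 3. Of 20 genes that act in histone gene transcription or in 3′ end formation of histone mRNA, 18 (90.0%) had one, with a median of 3. Slbp, the stem-loop binding protein, and Cpsf3, the endonuclease that cuts the mRNA, had 5 each, and Zfp473, Yy1 and Tbp had 4 each. TEAD1-HA had a peak at 14 of these 20 starts (70.0%) and at 6 of 14 variant starts (42.9%), beside 29.8% of all starts and 2 of 67 histone starts (2.99%). The 9 other protein-coding genes that lie between members of a cluster, among them Hfe and Slc17a1, had a median of 0 constructs at their starts, and 4 of them had any (44.4%), beside the same 57.6%.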

How the data were processed

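Peak lists of anti-HA ChIP-seq of HA-tagged TFs in NIH-3T3 cells were used, 28 in all, and the input library was not used here. Paired-end reads of 37 bases were aligned by the authors to mm10 with STAR 2.5.3a, keeping unique alignments, and duplicates were removed with Picard. Peaks were called per sample with MACS2 2.1.1.20160309 in paired-end mode, without pooling, and those over input peaks or blacklisted regions were discarded. Tool versions are those of the submitters' processing notes, which also name deepTools 2.4.2. The files, as deposited, hold 3 columns, the chromosome and both ends of every peak in bp, and no count, score or p-value, so depth is unknown. All 304922 peaks lay within the GRCm38 chromosome lengths.

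Genes, transcripts and start sites were those of GENCODE vM21, and sequences were read from GRCm38.p6. A gene was hit when a peak shared at least 1 bp with the gene and 1 kb on each side. A start site was hit when a peak reached within 1 kb of where the gene's principal transcript begins, chosen by APPRIS tag, CCDS entry and coding length. Duplicate lists were joined for counts of constructs. Touching peaks of all constructs were merged into sites, and the term widely shared is used for sites of 10 or more constructs. Positions refer to the start of the principal transcript. A 37-base word was unique when it occurred once on chromosomes 1 to 19, X and Y on either strand. Groups and replicate numbers came from the labels.

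The members and lists were chosen with earlier results of these data known, so counts stand beside those over all protein-coding genes and no test was run. Intervals are exact (Clopper-Pearson) at 95% and cover counting error only. Named were the 3 members with the most constructs (ties in genome order) and the one with the fewest in each class, the testis-restricted members, the members outside the larger clusters, those without a construct and the leading 3 genes of each comparison list. BHLHB8-HA histone coding words, genes tied with the last one named, Hist1h2bm and the neighbours Hfe and Slc17a1 were named after their values were seen. Of 15 variant genes listed, 14 were found in the annotation. Overlap and word counts were tested on simulated data. Alternatives were the distance from the gene, start sites in place of genes, peak midpoints, peaks of at least 300 bp, peaks outside widely shared sites, merged windows, other sets of members each duplicate alone and the starts of all protein-coding transcripts. The last of these, for the shares of other genes, and a count of members at the principal start were chosen after seeing the data. Computations used Python 3.11.15, NumPy 2.4.6, SciPy 1.17.1 and Numba 0.67.0, and plots Matplotlib 3.10.9.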

Additional observations from a re-analysis of the deposited data

How the results depend on the processing

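No paired analysis was possible because the results come from no test, and only duplicates of single constructs carry replicate numbers. The 150 combinations of gene and construct became 99 with the gene body alone, 91 with peaks of at least 300 bp and 93 with merged windows, and lay between 100 and 214 in the 9 other settings tried. Counts per construct moved more. Over 12 settings DLX6-HA met 9 to 30 histone genes or merged windows (21 genes in the main count), DLX1-HA 9 to 34 (20), DUXBL-HA 9 to 23 (14), SOX2-HA 4 to 19 (10), BHLHB8-HA 30 to 58 (57) and TEAD1-HA 1 to 3 (2). The 30 of BHLHB8-HA is of 34 merged windows, and its 36 is of the 39 genes with at least 80% unique words. With all 67 genes its lowest count was 46, for the gene body alone. Of the 60 counts of the first 5 constructs named, some of them over windows or fewer genes, 16 differed from the main count by over 1.5 times, among them DLX6-HA with 11 genes for the gene body alone and 9 with peaks of at least 300 bp, DLX1-HA with 13 and 9, and SOX2-HA with 4 and 4. The 58 genes with at least 1 construct became 31 merged windows of 34, or 37 of the 39 genes whose windows hold at least 80% unique words, and lay between 54 and 56 without either replicate. The 1 gene with 10 or more constructs, Hist4h4, became 0 with the gene body alone, with peaks of at least 300 bp, outside widely shared sites and when both duplicate lists had to hit, and was 0 or 1 without either replicate. The median of 2 constructs per gene became 1 with the gene body alone and with peaks of at least 300 bp. The number of histone genes met by wild-type FOXA1, 1 in the main count, was 2 at 2 kb and at 5 kb, 0 with peaks of at least 300 bp and when both lists had to hit, and 0 or 1 without either replicate. The lead of the H3 class over the next class turned to H1 at 2 kb (-0.167 constructs per gene) and without the testis-restricted genes (-0.0833), and was 0 at 5 kb, while it grew to 0.583 with the gene body alone, 0.917 at 500 bp and 0.994 at start sites. OCT4-HA with SOX2-YPET met 0 histone genes in every setting tried, up to 5 kb. The difference between histone and other start sites, as a median over constructs, stayed between -0.0734 and -0.0275 percentage points, and rho between 0.747 and 0.843. In the main count this median is that of constructs with no histone start hit, so its narrow range says little about histone promoters. The cause of these shifts was not tested, other than that fewer peaks or windows enter the narrower settings. With no depth in the files and 1 list for 20 constructs, differences between constructs carry no library error.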
